A study of Mus musculus with 2 samples.

Results

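The genes described here encode the machinery that docks, primes and fuses synaptic vesicles. They were chosen by name: every counted gene whose symbol is that of a synaptotagmin, a syntaxin, a syntaxin-binding protein, a RIM, a RIM-binding protein, an Unc13 protein, a complexin, a VAMP, a SNAP or a synapsin. The rule finds 67 of the 33,696 genes in the files, and no measured value enters the rule itself. The group was chosen with earlier results of these data known. Snap91, a clathrin adaptor, carries a SNAP symbol without being a SNARE and is kept as the rule gives it. By role the members are 9 active zone and priming genes, 7 syntaxin-binding proteins, 7 vesicle SNAREs, 9 plasma membrane SNAREs, 10 intracellular SNAREs, 4 complexins, 17 synaptotagmins, 3 synapsins and Snap91.

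A synaptic vesicle fuses when a SNARE on the vesicle (a VAMP) zips up with SNAREs on the plasma membrane (a syntaxin and a SNAP). Munc18 proteins, encoded by Stxbp genes, hold and guide the syntaxin, while Unc13 and RIM proteins at the active zone dock and prime the vesicle beside calcium channels. Synaptotagmins sense calcium, complexins clamp and assist the assembled SNAREs, and synapsins tether the reserve of vesicles. In the hippocampus the mossy fibers, the axons of dentate granule cells, release onto CA3 pyramidal cells at large boutons known for low initial release and strong facilitation.

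Nuclei of hippocampus from mice at postnatal day 19 were counted by droplet RNA sequencing in 2 libraries. The control mice had the genotype Cicflox/flox, and the mice of the library labelled knockout had Emx1-Cre; Cicflox/flox, so the floxed Cic alleles are common to both groups. Each library pooled tissue of 3 mice, 2 males and 1 female. Emx1-Cre recombines in excitatory neurons and glia of the dorsal telencephalon and leaves out interneurons and microglia, and the study is named for the targeting of mossy fibers in CA3 and for Capicua, the repressor that Cic encodes.

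With 1 library per group no difference could be tested. Values are sums of unique molecular identifiers (UMIs) over all nuclei of a class, scaled to the total UMIs of that class as CPM, the usual scale of UMI sums, and each comparison is the log2 ratio of the library labelled knockout over the control. Intervals are 95% intervals for counting error only, and they cover neither the spread between mice nor that between library preparations. A sum over nuclei does not tell fewer expressing nuclei from less RNA per nucleus. A member was counted as past 1.5-fold when its levels were at least 1.5-fold apart and at least 1 library held 50 UMIs or more. That count is by size and is no test.

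Filtering left 21,837 nuclei for the control and 20,529 for the library labelled knockout, with medians of 9783 and 8765 UMIs, and 175 cell barcodes occurred in both libraries (0.675% of control barcodes). Clusters named from hippocampal marker genes formed 16 classes with at least 100 nuclei per library, among them the dentate granule-like, the CA3-like and the CA1-like nuclei. The members themselves did not enter the clustering. Clusters left unnamed held 1973 and 2059 nuclei (9.04% and 10.0%), which lay outside the classes. Nuclei of the 2 libraries lay in different clusters within 4 of these classes. Dentate granule-like nuclei were mostly in cluster 2 in the control (3570 nuclei against 26 of the library labelled knockout) and in cluster 3 in the library labelled knockout (76 against 3341), while cluster 6 held 1270 and 545. CA1-like nuclei were mostly in cluster 9 in the control (1430 against 22) and in cluster 8 in the library labelled knockout (132 against 1321), while clusters 12 (434 and 473) and 22 (385 and 211) held nuclei of both. Oligodendrocyte-like nuclei were in cluster 10 (959 and 217), cluster 25 (7 and 484) and cluster 26 (219 and 232). CA2-like nuclei were few, in cluster 32 (146 and 123) and cluster 42 (4 and 65). Counts of the targeted gene Cic did not show a lower level for the library labelled knockout. Each library had 552 UMIs of it in dentate granule-like nuclei, at 9.33 and 12.98 CPM, for a log2 ratio of 0.48 (0.30 to 0.65), and in CA1-like nuclei the ratio was 0.83. Counts per gene do not show whether these transcripts held the floxed exons. Etv4, a known target that Capicua represses, had 62 and 4797 UMIs in dentate granule-like nuclei, a log2 ratio of 6.74. Outside the Emx1 lineage it was also higher: inhibitory-like nuclei had 46 and 158 UMIs (1.96), microglia-like nuclei 15 and 86 (2.78). The part of free RNA in these Etv4 sums was not tested.

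Most release genes stood at similar levels in both libraries. Of the 67 members, 27 were past 1.5-fold in at least 1 class, 35 had at least 50 UMIs somewhere and were past it nowhere, and 5 (Cplx3, Cplx4, Stx11, Syt15 and Syt8) never reached 50 UMIs in a class. The 27 are 43.5% of the 62 members with 50 UMIs in some class, against 38.7% of all such genes, and these members reached 50 UMIs in a median of 13 classes against 9 for all genes. Of 60 members with 50 UMIs in at least 2 classes, 5 were past 1.5-fold upward in one class and downward in another (8.33%), against 5.39% of such genes. In dentate granule-like nuclei 4 of 59 members with enough UMIs were past 1.5-fold (6.78%), against 10.4% of all genes. In CA3-like nuclei it was 6 of 56 members (10.7%), against 8.08% of all genes, and in CA1-like nuclei 8 of 56 (14.3%), against 12.5%. Immature dentate granule-like nuclei had 2 of 54 (3.7%), against 3.23%. Subicular or cortical excitatory-like nuclei had 2 of 53 (3.77%), against 6.98%. Inhibitory-like nuclei had none of 57, against 2.39% of all genes. No member was past 1.5-fold in oligodendrocyte precursor-like nuclei (0 of 50, against 2.68%), in committed oligodendrocyte precursor-like nuclei (0 of 39, against 5.77%) or in cycling progenitor-like nuclei (0 of 33, against 4.49%). At 2-fold, 1 of 59 members were past it in dentate granule-like nuclei (1.69%, against 4.18% of all genes), 1 of 54 in immature dentate granule-like nuclei (1.85%, against 0.424%) and 1 of 56 in CA3-like nuclei (1.79%, against 2.41%). CA1-like nuclei had 2 of 56 members at least 2-fold apart (3.57%, against 4.96%), oligodendrocyte-like nuclei 2 of 45 (4.44%, against 3.42%) and inhibitory-like nuclei none (against 0.263%). The shares in these classes lay near those of all genes, so they are not a result about the members as a set, and what follows concerns single members.

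**Figure D1:**
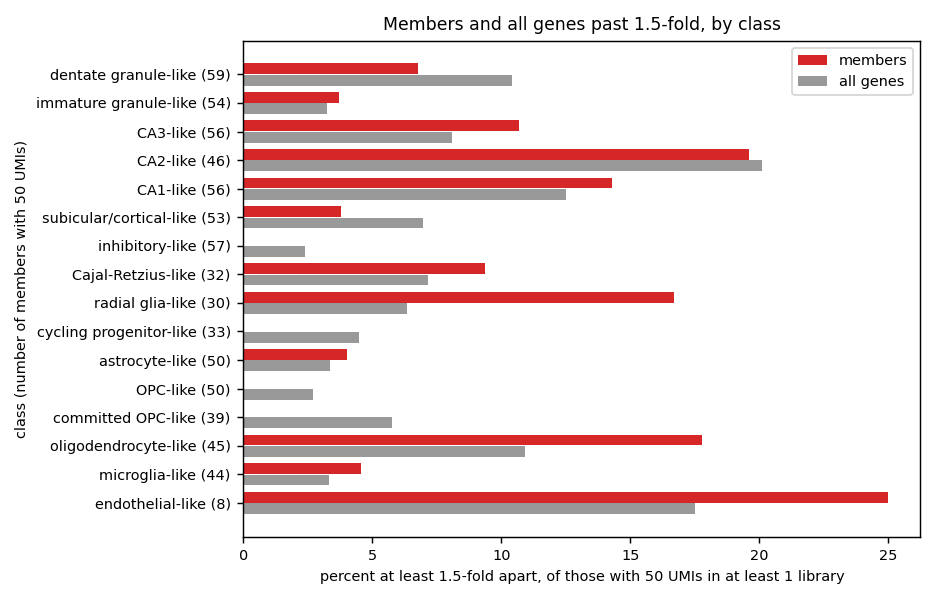
Percent of members (red) and of all genes (grey) at least 1.5-fold apart between the libraries, for each class of nuclei, among those with 50 UMIs in at least 1 library; the number of such members is in brackets. The bars lie near each other in dentate granule-like (6.78% and 10.4%), CA3-like (10.7% and 8.08%) and CA1-like nuclei (14.3% and 12.5%).

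The median log2 ratio over measured members, those with at least 20 UMIs over both libraries, was 0.05 in dentate granule-like nuclei, where it was 0.02 over all genes. It was 0.10 against 0.08 in CA3-like nuclei and 0.13 against 0.10 in CA1-like nuclei. The shift of all genes reached 0.1 in CA1-like and CA2-like nuclei, so a ratio there is to be read against it. The same holds downward in oligodendrocyte-like nuclei, where the median was −0.09 over all genes and −0.19 over the members. With TMM scaling, which removes the shift, 3 members were past 1.5-fold upward and 4 downward in CA1-like nuclei, in place of 5 and 3, as Stxbp3 and Syt16 fell short of it and Unc13b passed it. In CA3-like nuclei they were 5 higher and 2 lower in place of 5 and 1, with Syt17 added at −0.64. In oligodendrocyte-like nuclei Rims2, Stx3 and Vamp1 fell short of 1.5-fold with TMM scaling, at −0.53, −0.51 and −0.55. In inhibitory-like nuclei, outside the Emx1 lineage, the median was 0.05 for the members and 0.05 for all genes.

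**Figure D2:**
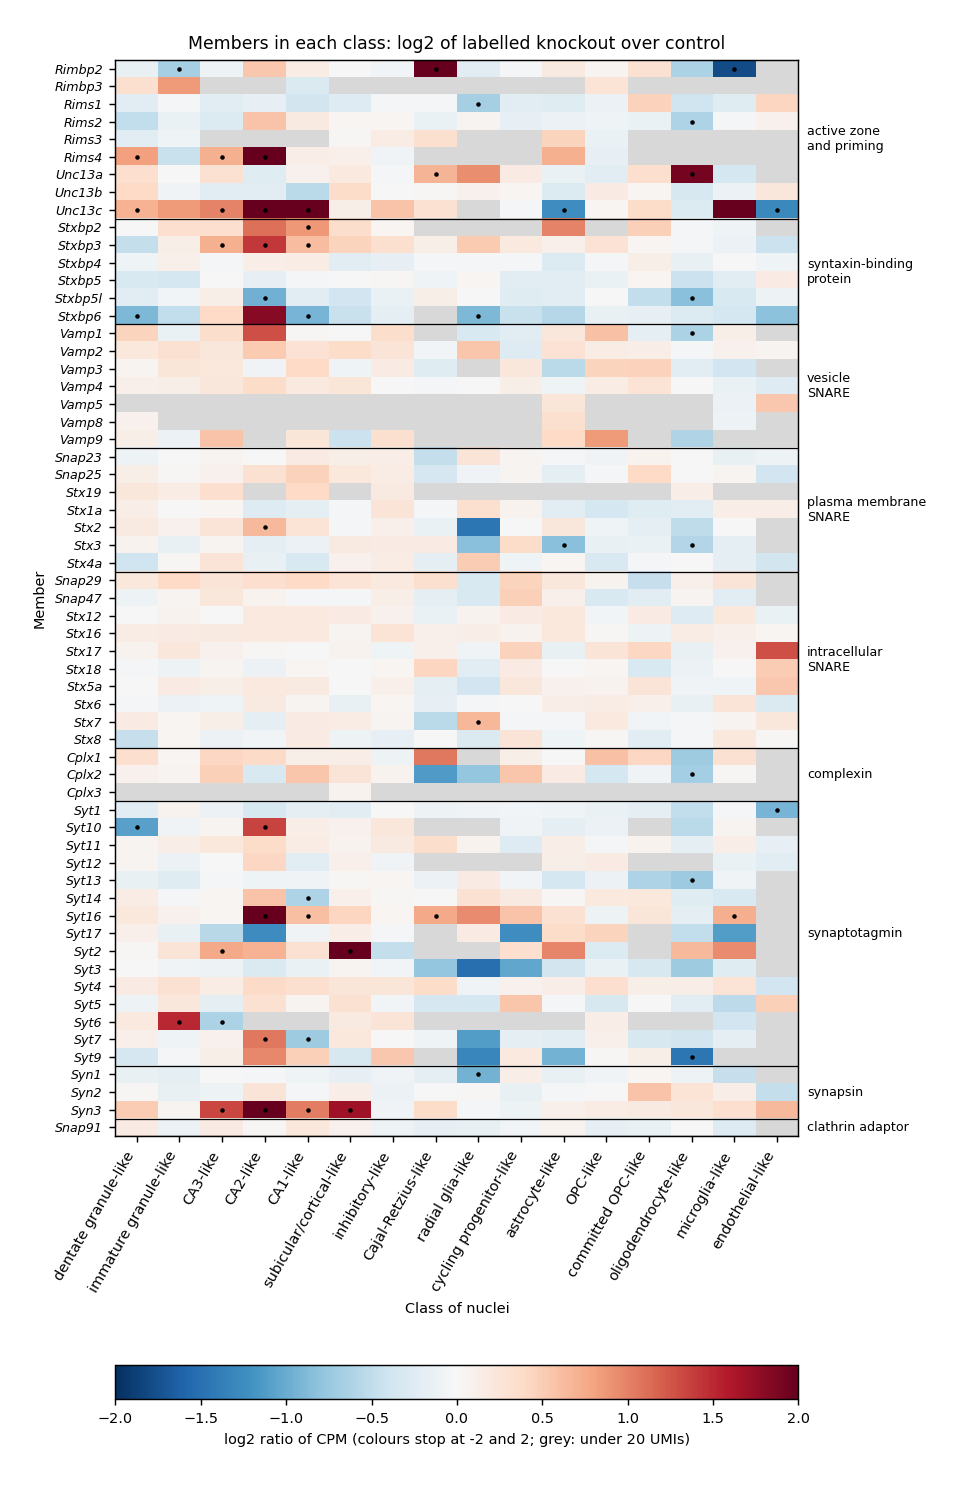
Log2 ratio (library labelled knockout over control) of 61 measured members, in rows by role, in each of 16 classes of nuclei, in columns; red is higher and blue lower in the library labelled knockout, grey is under 20 UMIs, and a dot marks members past 1.5-fold. Most of the map is pale, and Unc13c and Syn3 stand out in rows, with ratios of 3.05 and 1.03 in CA1-like nuclei.

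The regions before the start of 3 members are shown: Unc13c had the highest ratio of any member past 1.5-fold, and Stxbp6 and Syt10 were the 2 members past 1.5-fold downward in dentate granule-like nuclei. Capicua binds an octamer, and 4 of its forms were searched on both strands in RefSeq promoter windows (GRCm38.p6) of 250 bases before to 50 bases after the start: TGAATGAA, TGAATGGA, TCAATGAA and TCAATGGA. The forms differ from each other by letters and do not share a match. Of 51 members with a window, 1 held an octamer (1.96%), against 4.45% of 27,025 genes. That member was Unc13c, whose window holds TGAATGGA on the reverse strand, printed in capitals below as TCCATTCA, from base −144 to base −137 before the start. The 50 bases after this start were not found in a GENCODE transcript of Unc13c, while those of Stxbp6 and Syt10 were found in theirs. The 250 bases before each start, 5′ to 3′ on the strand of the gene, are at chr9:73969038-73969287 (minus strand) for Unc13c, chr12:45074484-45074733 (minus strand) for Stxbp6 and chr15:89841861-89842110 (minus strand) for Syt10. These positions are on the build of the RefSeq table and not on that of the counts. A match of letters is a description and not a binding site, and the lack of one says only that these letters are not in the window.
Unc13c: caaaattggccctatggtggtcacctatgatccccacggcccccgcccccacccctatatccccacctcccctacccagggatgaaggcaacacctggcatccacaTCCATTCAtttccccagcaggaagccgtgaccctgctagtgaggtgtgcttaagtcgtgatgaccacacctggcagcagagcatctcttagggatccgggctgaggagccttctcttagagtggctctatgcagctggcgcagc
Stxbp6: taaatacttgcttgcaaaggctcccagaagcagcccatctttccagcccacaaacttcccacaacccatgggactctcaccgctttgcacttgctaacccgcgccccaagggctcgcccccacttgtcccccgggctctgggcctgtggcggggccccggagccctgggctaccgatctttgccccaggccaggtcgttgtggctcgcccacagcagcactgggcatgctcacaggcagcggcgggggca
Syt10: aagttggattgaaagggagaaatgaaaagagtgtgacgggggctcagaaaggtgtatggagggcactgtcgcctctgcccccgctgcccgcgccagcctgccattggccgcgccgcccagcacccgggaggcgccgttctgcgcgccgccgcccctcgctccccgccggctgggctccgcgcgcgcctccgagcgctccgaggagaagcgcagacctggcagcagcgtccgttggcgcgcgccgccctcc

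Unc13c encodes Munc13-3, the priming factor best known from cerebellar granule cells, and it had the largest log2 ratio of the members past 1.5-fold in any class. In CA1-like nuclei the control held 488 UMIs of Unc13c and the library labelled knockout 3003, at 10.5 and 87.1 CPM. The log2 ratio was 3.05 (2.91 to 3.19), with 2.35 in female and 3.47 in male nuclei. The higher level was seen in each CA1-like cluster with nuclei of both libraries: 3.42 against 24.8 CPM in cluster 12 (2.84 on the log2 scale) and 11.1 against 60.5 CPM in cluster 22 (2.44). In cluster 8 the 132 control nuclei had 13.5 CPM and the 1321 nuclei of the library labelled knockout 117 CPM. Cluster 14, closest to CA1 by markers but left unnamed, had 37.7 and 290.4 CPM. So the control nuclei that lay among those of the other library still had the lower level. Unc13c was also a leading gene of cluster 29, unnamed and so outside the classes (102 and 270 nuclei).

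In CA3-like nuclei Unc13c had 566 and 926 UMIs, 19.2 and 38.4 CPM, for a log2 ratio of 1.00 (0.85 to 1.15). Its level in dentate granule-like nuclei was lower in both libraries, with 239 and 277 UMIs, 4.04 and 6.51 CPM, and the log2 ratio was 0.69 (0.43 to 0.94). Its UMIs per nucleus in dentate granule-like nuclei were 0.0486 and 0.0708, against 0.00198 and 0.0133 in microglia-like nuclei, which are given here and below as a reference for free RNA, though part of their UMIs may be their own. With those subtracted the ratio was 0.42, short of 1.5-fold, and within cluster 6 it was 1.45. The subtraction may remove more than free RNA, as radial glia-like nuclei of the library labelled knockout had only 0.00738 UMIs per nucleus. Inhibitory-like nuclei had 632 and 821 UMIs, 30.4 and 44.9 CPM, for a log2 ratio of 0.56 that stays short of 1.5-fold. The direction was the opposite in astrocyte-like nuclei, with 1148 and 388 UMIs, 121 and 51.2 CPM, for a log2 ratio of −1.24 (−1.42 to −1.08), −1.10 in female and −1.35 in male nuclei. Endothelial-like nuclei, which were few, had 128 and 73 UMIs, with a log2 ratio of −1.29 (−1.73 to −0.87), −3.04 in female and −0.93 in male nuclei, and 2 of their 8 members with enough UMIs were past 1.5-fold (25%, against 17.5% of all genes). The other was Syt1, with 216 and 158 UMIs, 721 and 377 CPM (−0.93, −1.24 to −0.63), or 2.12 and 1.14 UMIs per nucleus against 1.45 and 1.16 per microglia-like nucleus. The part of free RNA in it was not tested. The endothelial-like class is cluster 33, whose leading genes include the endothelial markers Slco1a4, Adgrl4 and Flt1 and the fibroblast marker Slc6a13. Whether its mix of cells differs between the libraries was not tested. The gene with the widest difference upward in pyramidal-like nuclei was thus lower in astrocyte-like and endothelial-like nuclei of the same library. Oligodendrocyte precursor-like nuclei had 1870 and 1840 UMIs of it (0.03), and microglia-like nuclei only 3 and 20.

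**Figure D3:**
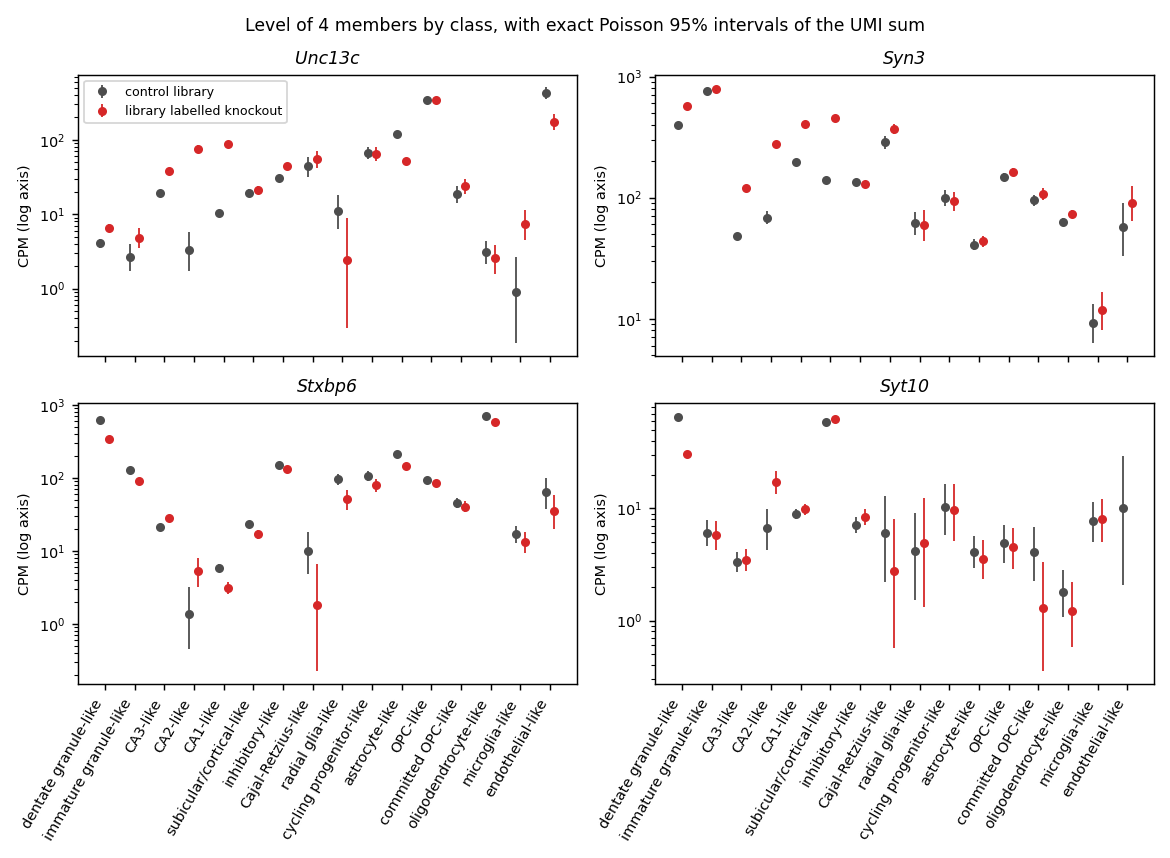
CPM (log axis) of Unc13c, Syn3, Stxbp6 and Syt10 in each class, for the control (grey) and the library labelled knockout (red), with exact Poisson 95% intervals of the UMI sum, where a library without a UMI has no point. Unc13c in CA1-like nuclei lies at 10.5 and 87.1 CPM, and Stxbp6 in dentate granule-like nuclei at 629.8 and 338 CPM.

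Unc13a, which encodes Munc13-1, the main priming factor of excitatory synapses, did not reach 1.5-fold in the principal neurons. Its log2 ratio was 0.33 in dentate granule-like nuclei, 0.30 in CA3-like nuclei and 0.08 in CA1-like nuclei. It was apart in oligodendrocyte-like nuclei, where 8 of 45 members were past 1.5-fold (17.8%), against 10.9% of all genes. That count was 5 with TMM scaling (11.1%, against 9.88%) and 4 with doublets kept (7.84%, against 9.54%). Unc13a had 127 and 396 UMIs in oligodendrocyte-like nuclei, 12.7 and 48.0 CPM, for a log2 ratio of 1.91 (1.62 to 2.21). In cluster 26, which both libraries fill about equally, the levels were 13.5 and 52.7 CPM. In cluster 10 they were 12.6 and 17.4 CPM, for a log2 ratio of 0.49 (−0.24 to 1.13), so the difference was not seen to the same size in every oligodendrocyte-like cluster. Its UMIs per oligodendrocyte-like nucleus, 0.107 and 0.424, were set against 0.0549 and 0.0354 per microglia-like nucleus. Cajal-Retzius-like nuclei, with 3 of 32 members past 1.5-fold (9.38%, against 7.14% of all genes), had 55 and 95 UMIs of Unc13a (0.67, 0.18 to 1.19) and 30 and 55 UMIs of Syt16 (0.75, 0.10 to 1.46). Unc13b, for Munc13-2, stayed within 1.5-fold, at 0.40 in dentate granule-like nuclei, −0.21 in CA3-like nuclei and −0.54 in CA1-like nuclei. With TMM scaling it was at −0.64 in CA1-like nuclei and so past 1.5-fold.

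Among the RIM genes only Rims4, which encodes a short RIM, was past 1.5-fold in CA3-like or dentate granule-like nuclei. Dentate granule-like nuclei had 463 and 590 UMIs of it, 7.83 and 13.9 CPM, for a log2 ratio of 0.82 (0.65 to 1.00), and 1.08 and 0.71 in female and male nuclei. In CA3-like nuclei it had 300 and 403 UMIs, 10.2 and 16.7 CPM, for a log2 ratio of 0.72 (0.50 to 0.94), and only 0.43 in male nuclei. It was not apart in CA1-like nuclei (0.13) or inhibitory-like nuclei (−0.07). The long RIMs that organise the active zone were lower by less than 1.5-fold in dentate granule-like nuclei: Rims1 had a log2 ratio of −0.23 there and Rims2 −0.50. In oligodendrocyte-like nuclei Rims2 had 4063 and 2196 UMIs, 407 and 266 CPM, for a log2 ratio of −0.61 (−0.69 to −0.54). That call held in only 1 of 8 other settings, and the ratio was −0.28 with nuclei thinned to 2000 UMIs.

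Rimbp2 links RIMs to calcium channels. In immature dentate granule-like nuclei its sums were 169 and 96 UMIs, for a log2 ratio of −0.66 (−1.04 to −0.29). With the UMIs per microglia-like nucleus subtracted, that ratio turned to 0.18. That subtraction can remove more than free RNA, since the control had only 0.0338 UMIs of Rimbp2 per oligodendrocyte-like nucleus. Microglia-like nuclei had 74 and 17 UMIs of the gene (−1.79, −2.68 to −1.05), and 2 of their 44 members were past 1.5-fold (4.55%, against 3.3% of all genes), the other being Syt16 with 71 and 96 UMIs (0.73, 0.27 to 1.20). Per nucleus Rimbp2 had 0.0489 and 0.0113 UMIs in microglia-like nuclei and 0.0392 and 0.0396 in astrocyte-like nuclei, and the part of free RNA in these values was not tested. In Cajal-Retzius-like nuclei, which are few (176 and 222), Rimbp2 had 16 and 102 UMIs, 16.0 and 94.3 CPM, for a log2 ratio of 2.53 (1.79 to 3.42), or 0.0909 and 0.459 UMIs per nucleus. Dentate granule-like nuclei showed little difference, with 13,713 and 8855 UMIs, with a log2 ratio of −0.16.

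Stxbp6 encodes amisyn, which carries a SNARE-like stretch that binds syntaxin and is known to hold back fusion. Dentate granule-like nuclei held 37,251 UMIs of it in the control against 14,397 in the other library, at 629.8 and 338 CPM, or 7.58 and 3.68 UMIs per nucleus. The log2 ratio was −0.90 (−0.92 to −0.87), with −0.998 in female and −0.83 in male nuclei. Within cluster 6, which both libraries fill, the levels were 655 and 272 CPM, for a log2 ratio of −1.27. The 76 control nuclei of cluster 3 had 408 CPM against 346 CPM in the other library, so they lay nearer to the nuclei around them than to the control nuclei of cluster 2, at 627 CPM. Gm15902, a gene on the same strand that overlaps Stxbp6, had 1067 and 451 UMIs in dentate granule-like nuclei, a log2 ratio of −0.77, and reads of the pair may be split between them by the counting.

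In immature dentate granule-like nuclei the log2 ratio of Stxbp6 was −0.49, within 1.5-fold, at 128 and 90.8 CPM. In CA1-like nuclei its level was low, with 274 and 107 UMIs, 5.90 and 3.10 CPM, and the log2 ratio was −0.92 (−1.26 to −0.60), −1.57 in male nuclei and 0.02 in female nuclei. Of the 274 control UMIs there, 190 came from cluster 12. In CA3-like nuclei it was 0.41, in astrocyte-like nuclei −0.57 (−0.62 and past 1.5-fold with TMM scaling), and in oligodendrocyte-like nuclei, where the control level was highest (698 CPM), it was −0.27. Radial glia-like nuclei had 139 and 42 UMIs, with a log2 ratio of −0.90 (−1.45 to −0.41). That class had 5 of 30 members past 1.5-fold (16.7%), against 6.34% of all genes, each with at most 210 UMIs in either library. Among them Syn1 had 62 and 18 UMIs, 43.1 and 22.0 CPM (−0.95, −1.82 to −0.20), Rims1 had 210 and 75 UMIs, 146 and 91.5 CPM (−0.67, −1.08 to −0.29), and Stx7 had 54 and 49 UMIs, 37.6 and 59.8 CPM (0.67, 0.08 to 1.26). The Stx7 level per nucleus, 0.134 and 0.181 UMIs, was below the 0.4702 and 0.4003 of microglia-like nuclei.

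The Munc18 genes differed among themselves. Stxbp3, for the widely expressed Munc18c, had 503 and 673 UMIs in CA3-like nuclei, 17.05 and 27.9 CPM, for a log2 ratio of 0.71 (0.54 to 0.88), with 1.01 in female and 0.41 in male nuclei. In CA1-like nuclei it had 1043 and 1192 UMIs, 22.5 and 34.6 CPM, for a log2 ratio of 0.62 (0.50 to 0.74). Within CA1-like clusters 12 and 22 that difference was 0.08 and 0.13, and over both clusters together 0.12, so it was not seen where the libraries share clusters. CA3-like nuclei had 0.405 and 0.586 UMIs of it per nucleus and microglia-like nuclei 0.378 and 0.286. With the latter subtracted the ratio was 3.60, and 2.51 in CA1-like nuclei. The Stxbp3 level per nucleus was only 0.0953 and 0.0837 in the immature dentate granule-like class, below that of microglia-like nuclei. These subtracted values thus remove more than free RNA and are not relied on, though the counts over other settings at the end include them. Stxbp2, for Munc18b, known from blood and epithelial cells, had 221 and 299 UMIs in CA1-like nuclei, 4.76 and 8.67 CPM, for a log2 ratio of 0.86 (0.61 to 1.12). Stxbp5l, for tomosyn-2, a syntaxin-binding inhibitor of priming, had 793 and 368 UMIs in oligodendrocyte-like nuclei, 79.5 and 44.6 CPM, for a log2 ratio of −0.83 (−1.02 to −0.65), and −0.22, 0.12 and −0.21 in the dentate granule-like, the CA3-like and the CA1-like nuclei. Its level was highest in CA2-like nuclei, with 14,161 and 8116 UMIs, 3935 and 2028 CPM, where it was the one member past 1.5-fold downward (−0.96, −0.996 to −0.92). This ratio was not split by cluster, and CA2-like cluster 42 held 65 nuclei of the library labelled knockout against 4 of the control.

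The SNARE genes that carry out fusion stayed within 1.5-fold in each of these 4 classes: dentate granule-like, CA3-like, CA1-like and inhibitory-like nuclei. Snap25, the neuronal SNAP, had log2 ratios of 0.12 in dentate granule-like nuclei, 0.09 in CA3-like nuclei and 0.45 in CA1-like nuclei. The CA1-like levels were 554 and 759 CPM, from 25,717 and 26,181 UMIs. Stx1a, a neuronal syntaxin, had 0.14 in dentate granule-like nuclei, 0.04 in CA3-like nuclei and −0.19 in CA1-like nuclei. Vamp2, the main vesicle SNARE of the forebrain, had 0.20, 0.22 and 0.28 in the same order. Of the intracellular SNAREs, which serve the Golgi and endosomes, 0 of 10 were past 1.5-fold in these classes. The shares of all genes past it were 10.4%, 8.08%, 12.5% and 2.39%, in the order in which the classes are named above. A count of 0 of 10 is near these shares and is no result about the SNAREs. The intracellular SNARE farthest from 0 in dentate granule-like nuclei was Stx8 at −0.47. In CA1-like nuclei the median ratio was 0.24 over the 5 measured vesicle SNAREs and 0.16 over the 10 intracellular SNAREs, against 0.10 over all measured genes.

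Outside these neurons, Stx3, a plasma membrane syntaxin, had 92 and 41 UMIs in astrocyte-like nuclei, a log2 ratio of −0.84 (−1.41 to −0.30), and 64 and 35 UMIs in oligodendrocyte-like nuclei, −0.59 (−1.23 to 0.02). The latter call held in 4 of 8 other settings, with −0.15 after thinning. Per nucleus Stx3 had 0.0457 and 0.0226 UMIs in the astrocyte-like and 0.0540 and 0.0375 in the oligodendrocyte-like class, against 0.0364 and 0.0260 in microglia-like nuclei. Astrocyte-like nuclei had 2 of 50 members past 1.5-fold (4.0%), against 3.36% of all genes. Vamp1, the vesicle SNARE of fast hindbrain and spinal synapses, was at −0.63 in oligodendrocyte-like nuclei, from 124 and 66 UMIs, and held its call in 5 of 8 other settings (−0.33 in female nuclei). Its 0.105 and 0.0707 UMIs per nucleus there compare with 0.0820 and 0.0727 in microglia-like nuclei. Of the 8 members past 1.5-fold in oligodendrocyte-like nuclei, 5 had less than 2 times the microglia-like UMIs per nucleus in at least 1 library: Cplx2, Stx3, Syt13, Unc13a and Vamp1. The part of free RNA in these differences was not tested. Vamp5 and Vamp8, known from muscle and from secretory and blood cells, were measured in few classes, and their highest control levels were in endothelial-like nuclei (70.1 CPM) and microglia-like nuclei (27.5 CPM).

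Complexins were within 1.5-fold in both pyramidal-like classes and in dentate granule-like nuclei. Cplx1 had log2 ratios of 0.34 and 0.41 and Cplx2 of 0.09 and 0.48 in dentate granule-like and CA3-like nuclei. In CA1-like nuclei Cplx2 had 1778 and 1942 UMIs, 38.3 and 56.3 CPM, for a log2 ratio of 0.56, the highest among members there that stayed short of 1.5-fold. In oligodendrocyte-like nuclei it had 72 and 37 UMIs, for a log2 ratio of −0.68 (−1.30 to −0.09), and −0.30 with doublets kept. Its UMIs per oligodendrocyte-like nucleus (0.0608 and 0.0397) were close to those of microglia-like nuclei (0.0569 and 0.0474).

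Synaptotagmins differed by gene and class. Syt1, the fast calcium sensor of forebrain synapses, had log2 ratios of −0.20, −0.12 and −0.20 in the dentate granule-like, the CA3-like and the CA1-like nuclei, from sums between 96,738 and 183,228 UMIs. Syt10, known as the calcium sensor of secretory vesicles with IGF-1 in olfactory neurons, had the lowest ratio of any member in dentate granule-like nuclei. There it had 3855 and 1311 UMIs, 65.2 and 30.8 CPM, for a log2 ratio of −1.08 (−1.17 to −0.99), with −0.88 in female and −1.21 in male nuclei. This difference followed the clusters. In cluster 6 both libraries stood at about 38.5 and 38.6 CPM, for a log2 ratio of 0.01, while cluster 2, nearly all control, had 73.2 CPM, and cluster 3 had 39.7 CPM in its 76 control nuclei and 29.5 CPM in the other library. The 26 nuclei of the library labelled knockout in cluster 2 had 75.0 CPM. In subicular or cortical excitatory-like nuclei, the other class with a high level, clusters 19 and 24 had log2 ratios of 0.12 and 0.01.

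**Figure D4:**
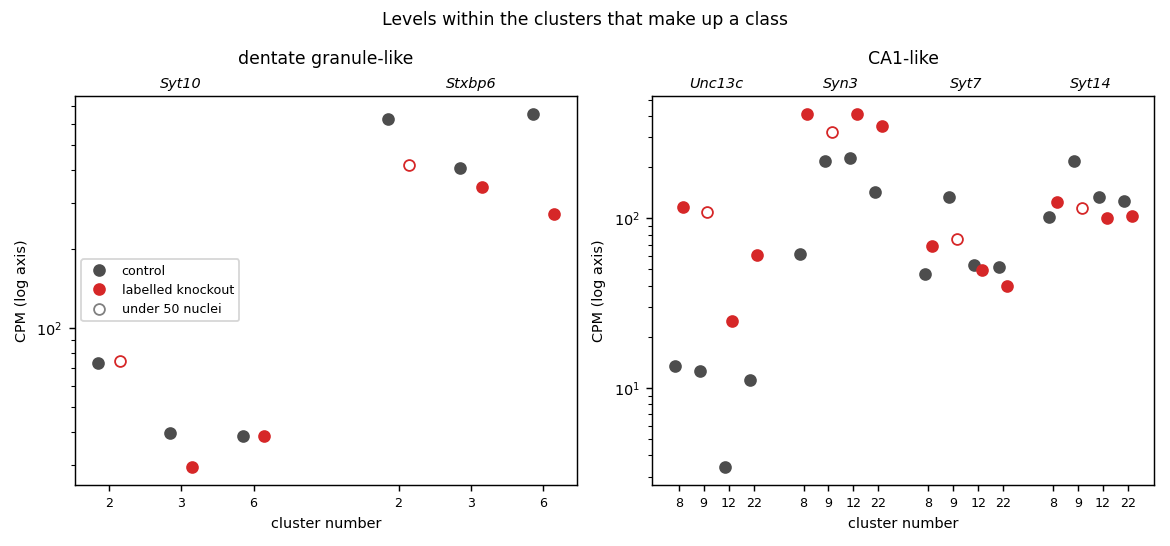
CPM (log axis) of Syt10 and Stxbp6 in the 3 dentate granule-like clusters and of Unc13c, Syn3, Syt7 and Syt14 in the 4 CA1-like clusters, by library (control grey, labelled knockout red, open circles under 50 nuclei). In cluster 6 Stxbp6 lies at 655 and 272 CPM while Syt10 lies at 38.5 and 38.6, and in clusters 12 and 22 Unc13c and Syn3 are apart while Syt7 is at 52.8 and 49.8 and at 51.7 and 40.0.

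Syt7, the slow calcium sensor that facilitation needs at several synapses, mossy fiber synapses among them, was at 205 and 220 CPM in dentate granule-like nuclei, a log2 ratio of 0.10, and at 116 and 123 CPM in CA3-like nuclei (0.09). In CA1-like nuclei it had 4595 and 2091 UMIs, 99.0 and 60.6 CPM, for a log2 ratio of −0.71 (−0.78 to −0.63), with −0.35 in female and −0.88 in male nuclei. In CA1-like clusters 12 and 22 together the ratio was −0.17, and the control level was 134 CPM in cluster 9 and 47.1 CPM in the control nuclei of cluster 8. Syt14, a synaptotagmin that does not bind calcium, had values of the same kind, with 8305 and 4016 UMIs, 179 and 116 CPM, for a log2 ratio of −0.62 (−0.67 to −0.57) over the class and −0.36 in clusters 12 and 22. Cluster by cluster, Syt7 was at −0.08 in cluster 12 and −0.37 in cluster 22, and Syt14 at −0.40 and −0.30. Syt16, another synaptotagmin without calcium binding, had 13,768 and 15,568 UMIs in CA1-like nuclei, 297 and 451 CPM, for a log2 ratio of 0.61 (0.57 to 0.64), and 0.50 with TMM scaling.

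Members with low counts gave the other differences. Syt6 had 40 and 103 UMIs in immature dentate granule-like nuclei, 4.26 and 12.2 CPM, for a log2 ratio of 1.51 (0.98 to 2.08), with 1.71 in female and 1.48 in male nuclei. Per nucleus it had 0.0196 and 0.0454 UMIs, against 0.0119 and 0.00734 in microglia-like nuclei, and the ratio was 2.58 with the latter subtracted. It had 124 and 65 UMIs in CA3-like nuclei, a log2 ratio of −0.64 (−1.10 to −0.20) that was −1.91 in female and −0.16 in male nuclei. Syt2, a fast calcium sensor, had 42 and 58 UMIs in CA3-like nuclei (0.75, 0.16 to 1.36). Subicular or cortical excitatory-like nuclei had 47 and 180 UMIs of it, 3.89 and 15.6 CPM, for a log2 ratio of 1.99 (1.53 to 2.50). Its highest level was in immature dentate granule-like nuclei, at 35.8 and 42.8 CPM. Syt9, also a fast calcium sensor, had 77 and 23 UMIs in oligodendrocyte-like nuclei, a log2 ratio of −1.45 (−2.21 to −0.78) and −0.62 after thinning, while in immature dentate granule-like nuclei, where it was highest, it had 142 and 138 CPM. Syt13 had 85 and 42 UMIs in oligodendrocyte-like nuclei, 8.52 and 5.09 CPM, at −0.73 (−1.31 to −0.19), and −0.38 in male nuclei. Its UMIs per nucleus there, 0.0717 and 0.0450, compare with 0.0681 and 0.0534 in microglia-like nuclei.

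Syn3, for synapsin III, the synapsin of developing neurons, was higher in 4 neuronal classes. In CA3-like nuclei it had 1415 and 2917 UMIs, 48.0 and 121 CPM, for a log2 ratio of 1.33 (1.24 to 1.43), with 1.504 in female and 1.34 in male nuclei. In CA1-like nuclei it had 9200 and 13,933 UMIs, 198 and 404 CPM, for a log2 ratio of 1.03 (0.99 to 1.07). Both pyramidal classes thus had levels at least 2-fold apart, and the difference was seen within clusters: 1.33 and 1.37 in CA3-like clusters 7 and 23, and 0.86 and 1.30 in CA1-like clusters 12 and 22. In subicular or cortical excitatory-like nuclei it had 1694 and 5263 UMIs, 140 and 455 CPM, for a log2 ratio of 1.70 (1.62 to 1.78). Dentate granule-like nuclei had a ratio of 0.51, short of 1.5-fold, at 401 and 572 CPM, and 0.33 within cluster 6. Immature dentate granule-like nuclei, where the level was highest, had 765 and 795 CPM (0.06), and inhibitory-like nuclei 136 and 129 CPM (−0.07).

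Timp3, a metalloproteinase inhibitor gene that lies on the opposite strand within the span of Syn3, showed ratios near those of Syn3 in the neuronal classes. It had 233 and 557 UMIs in CA3-like nuclei (1.55) and 1187 and 2014 in CA1-like nuclei (1.19). Its sums were 3284 and 3480 UMIs in dentate granule-like nuclei (0.56), while subicular or cortical excitatory-like nuclei had 205 and 568 (1.53). In oligodendrocyte-like nuclei the genes were unlike, with Timp3 at 1.35 from 103 and 218 UMIs and Syn3 at 0.23 from 625 and 606. Whether reads of one gene were counted for the other was not tested. Syn1 and Syn2, the synapsins of mature terminals, had log2 ratios between −0.15 and 0.02 in dentate granule-like nuclei and in both pyramidal-like classes.

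CA2-like nuclei had 9 of 46 members past 1.5-fold (19.6%), against 20.1% of all genes. Some of these ratios moved with cluster 42, which held 65 nuclei of the library labelled knockout and 4 of the control. Stx2 and Stxbp5l were not split by cluster. Unc13c had 12 and 304 UMIs over the class (4.45, 3.68 to 5.48), and 290 of the latter came from cluster 42. Rims4 had 12 and 124 UMIs (3.16, 2.36 to 4.21), Syt16 had 182 and 1224 UMIs (2.59, 2.37 to 2.83) and Syn3 had 246 and 1106 UMIs (2.01, 1.81 to 2.22) over the class. Within cluster 32, Syn3 had 66.2 and 134 CPM (1.01) and Stxbp3 had 9.33 and 27.0 CPM (1.52), and Rims4 had 3.39 and 11.49 CPM (1.73), so these were apart there as well, while Syt16 was at 0.49. Syt10 went from 24 and 69 UMIs over the class to 16 and 3 in cluster 32.

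The direction of the ratio was the same in female and male nuclei for 52 of the 53 cases of a member past 1.5-fold in a class, and in 31 of the 53 each sex alone was past 1.5-fold. The exception was Stxbp6 in CA1-like nuclei. The cases were picked by the ratio over both sexes together, so the agreement was partly fixed by that choice and is no support. Shares over all genes picked in the same way were not counted. In each library 1 mouse gave the female nuclei and 2 others the male ones, so both sexes share the library and do not replicate the comparison.

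**Figure D5:**
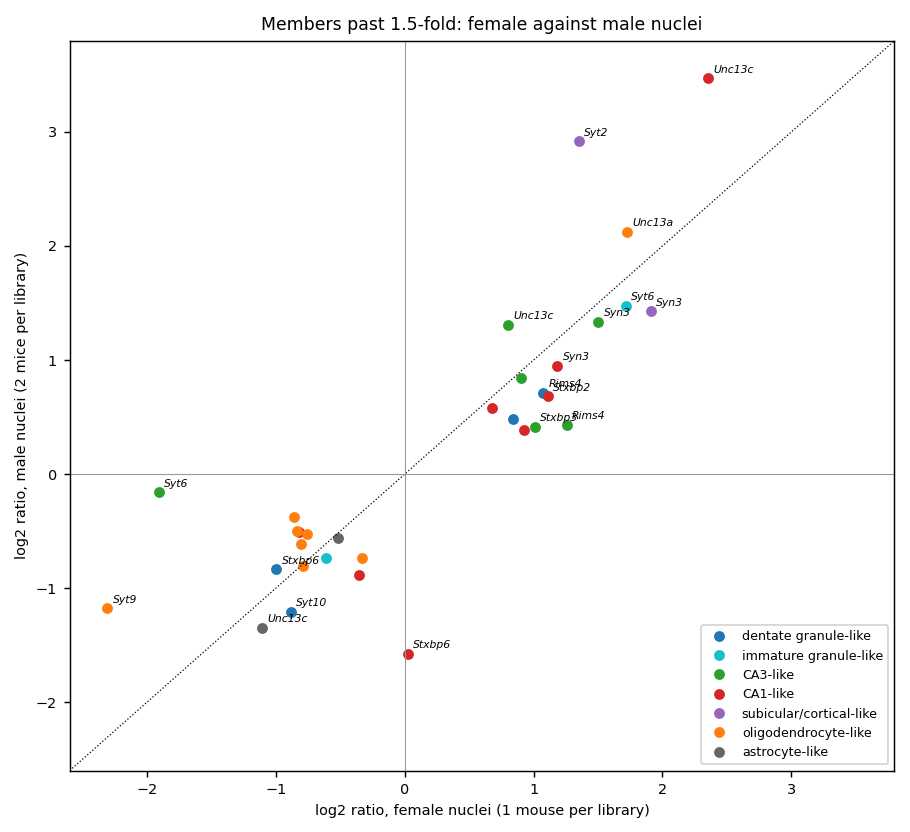
Log2 ratio in female nuclei (1 mouse per library, x axis) against male nuclei (2 mice per library, y axis) for members past 1.5-fold in 7 classes, 1 point per member and class, with the diagonal dotted and points farther than 0.95 from 0 named. All points but Stxbp6 in CA1-like nuclei (0.02 and −1.57) lie in the lower left or the upper right. Points were picked by the ratio over both sexes together, which partly sets this.

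Beyond the members, 53 other genes of the vesicle cycle were listed. The list was drawn up with earlier results of these data known, so shares over it are no result about it as a set. Among the listed genes, 7 of 49 with enough UMIs in dentate granule-like nuclei were past 1.5-fold (14.3%, against 10.4% of all genes), 3 higher and 4 lower. In CA3-like nuclei it was 6 of 47 (12.8%, against 8.08%), 4 higher and 2 lower, and in CA1-like nuclei 8 of 47 (17%, against 12.5%), all 8 higher, where 8.7% of all genes were past 1.5-fold upward. Otof, for otoferlin, the calcium sensor of hair cell release, had 443 and 1956 UMIs in dentate granule-like nuclei, a log2 ratio of 2.62 (2.47 to 2.77), and 63 and 417 UMIs in CA3-like nuclei (3.01). Rab3b, a vesicle GTPase, had 20 and 76 UMIs in CA3-like nuclei (2.19) and 166 and 468 in CA1-like nuclei (1.92). Slc17a6, the vesicular glutamate transporter of subcortical neurons, had 178 and 633 UMIs in CA1-like nuclei (2.26). Lower in dentate granule-like nuclei were Sv2b, a vesicle glycoprotein, with 913 and 327 UMIs (−1.004), and Pacsin1, an endocytic protein, with 9693 and 4176 UMIs (−0.74). The Sv2b sums came from 4916 and 3912 dentate granule-like nuclei, while 1512 and 1499 microglia-like nuclei had 150 and 114 UMIs of it. The part of free RNA in the Sv2b sums was not tested. Of the 10 active zone scaffold genes, Bassoon and Piccolo among them, 0 were past 1.5-fold in dentate granule-like nuclei, against 10.4% of all genes.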

How the data were processed

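Per the file headers, the deposited matrices give whole-number counts of UMIs by gene and barcode, which the authors left without normalization. Per the submitters' processing notes, they name Cell Ranger 8.0.1 and the mouse build mm39. The steps between the reads and the deposited counts are otherwise not given in the sources used here. The files hold 25,907 control barcodes with 314,453,640 UMIs and 23,207 barcodes of the library labelled knockout with 252,995,761 UMIs.

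Nuclei with fewer than 500 genes or over 5% mitochondrial UMIs were left out. Doublets called by Scrublet in scanpy 1.11.5 at an expected rate of 0.1 (12.9% of control nuclei and 10.9% of the other library) were left out as well. Both libraries were clustered together without batch correction, since library and genotype coincide, using 3000 variable genes, 30 components, 15 neighbours and Leiden resolution 1. The members, mitochondrial genes, Xist and Y-linked genes were kept out of the clustering. A cluster was named from marker lists and otherwise stayed unnamed. A nucleus was called female or male from Xist and Y-linked UMIs. Sums were scaled by the class total, 0.5 UMI was added to each for a ratio, and intervals are exact Poisson for a sum and exact conditional binomial for a ratio. The code was checked on simulated counts. Classes with fewer than 100 nuclei in a library (hilar mossy-like and ependymal-like) were not compared.

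Single values of 2 members are not reported here, while counts over the members include them. The members and gene lists were chosen with earlier results of these data known. Members past 1.5-fold with 50 UMIs are given with UMIs, ratio and interval, the 10 largest ratios at most in dentate granule-like, immature dentate granule-like, CA3-like, CA1-like and inhibitory-like nuclei and at least the 4 largest, where there are as many, in other classes. Companion genes are given up to 4 per class. Further genes (Timp3, Gm15902 and members named for their role or as examples) were named after their values were seen. Gene overlaps and strands came from the GENCODE annotation of GRCm38 and promoters from RefSeq (GRCm38.p6), matched by symbol. It is not stated whether the counting used strand, so overlapping genes on opposite strands may share reads: 23 of the 67 members overlap another counted gene, 4 of them on the same strand. Alternatives tried were other scaling (edgeR's TMM factors and median-of-ratios factors on the counts), doublets kept, each sex alone, thinning to 2000 UMIs, means over nuclei, members in the clustering, subtraction of UMIs per microglia-like nucleus, other minimum counts and folds, and, chosen after seeing the data, clusters that both libraries fill.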

Additional observations from a re-analysis of the deposited data

Results flagged for a closer look

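For 5 of 60 members (8.33%, against 5.39% of all genes) the ratio was past 1.5-fold upward in 1 class and downward in another, in opposite directions between classes of nuclei of the same 2 libraries. The difference between the classes was not tested, as each ratio rests on 1 library per group. Unc13c was at 4.45 in CA2-like nuclei, from 12 and 304 UMIs, 290 of the latter in cluster 42, and at −1.29 in endothelial-like nuclei (−3.04 in female and −0.93 in male nuclei), where 2 of 8 members were past 1.5-fold (25%, against 17.5% of all genes). The mix of cells in the endothelial-like class was not tested. Rimbp2 was at 2.53 in Cajal-Retzius-like nuclei and at −1.79 in microglia-like nuclei, with 0.0909 and 0.459 UMIs per nucleus in the former and 0.0489 and 0.0113 in the latter. Syt10 was at 1.35 in CA2-like nuclei, from 24 and 69 UMIs, with 2.32 in female and 0.29 in male nuclei, and at −1.08 in dentate granule-like nuclei. Neither value was seen where both libraries fill a cluster: CA2-like cluster 32 had 16 and 3 UMIs of Syt10, and dentate granule-like cluster 6 a ratio of 0.00716. Cluster 6 held only 25.8% and 13.9% of the dentate granule-like nuclei and does not stand for the others. Syt6 was at 1.51 in immature dentate granule-like nuclei and at −0.64 in CA3-like nuclei. Syt7 was at 1.06 in CA2-like nuclei, from 177 and 410 UMIs, and at −0.71 in CA1-like nuclei, against 0.64 in CA2-like cluster 32 and −0.17 in CA1-like clusters 12 and 22.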

How the results depend on the processing

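No paired analysis was possible because each group is 1 library. Over 32 ratios of single members and 288 values under other settings, 285 kept their direction and 238 were still past 1.5-fold. Of the 32, 14 were past 1.5-fold in every setting and 18 fell short in some. They were picked as past 1.5-fold in the same counts, which partly sets these numbers. They came from dentate granule-like, immature dentate granule-like, CA3-like, CA1-like, subicular or cortical excitatory-like, oligodendrocyte-like and astrocyte-like nuclei. Members past 1.5-fold in the other classes are not among them. The direction reversed for Stxbp6 in CA1-like nuclei in female nuclei alone (0.0229). It also reversed for Rimbp2 in immature dentate granule-like nuclei with microglia-like UMIs subtracted (0.18), which can remove more than free RNA. The third was Syt10 in dentate granule-like nuclei in the clusters that both libraries fill (0.00716). The cause was not tested.

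The number of members past 1.5-fold moved with several settings. A fold of 2 left 1 member in each of the dentate granule-like, the immature dentate granule-like and the CA3-like nuclei, and 2 each in CA1-like and oligodendrocyte-like nuclei. Female nuclei alone gave 13 in CA1-like nuclei (25%, against 18.3% of all genes in that setting) and 4 in inhibitory-like nuclei (7.27%, against 5.83%). Male nuclei alone gave 5 in CA1-like (9.09%, against 10.8%), 3 in CA3-like (5.77%, against 7.16%), 1 in immature dentate granule-like (2.22%, against 4.21%) and 3 in oligodendrocyte-like nuclei (7.89%, against 10.5%). Thinning gave 3 in CA3-like (6.98%, against 7.42%) and 2 in inhibitory-like nuclei (4.44%, against 2.77%). Subtraction of microglia-like UMIs gave 8 in dentate granule-like (2 higher, 6 lower, or 14%, against 17.4%) and 6 in immature dentate granule-like nuclei (14.3%, against 17.4%). That subtraction can remove more than free RNA, as said above for Stxbp3 and Rimbp2. Means over nuclei gave 1 in immature dentate granule-like (1.82%, against 3.87%) and 1 in inhibitory-like nuclei (1.72%, against 2.81%). Doublets kept gave 1 in inhibitory-like (1.72%, against 2.32%) and 4 in oligodendrocyte-like nuclei (7.84%, against 9.54%). TMM and median-of-ratios factors gave 5 in oligodendrocyte-like nuclei (11.1%, against 9.88% and 9.89%), and a minimum of 20 UMIs gave 4 in immature dentate granule-like nuclei (6.67%, against 6.83%).

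The median ratio of members in immature dentate granule-like nuclei, 0.03, was −0.0332 with TMM, −0.0502 with median-of-ratios factors and −0.0553 in male nuclei. In inhibitory-like nuclei, 0.05, it was −0.00084 with TMM, −0.0137 with median-of-ratios factors, 0.23 in female nuclei and −0.0397 in male nuclei. Members with few UMIs cannot show a difference of this size at this depth.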
